A study of Mus musculus with 8 samples.

Results

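Malat1, Neat1, Gas5, Miat, Dnm3os and Snhg1 are 6 long noncoding RNA genes, chosen by name from the 24980 gene symbols of the deposited count table for mouse skeletal myogenic cells. All 6 passed the filter on low counts, which kept 17582 symbols. RNA-seq was available for 8 libraries in 4 groups of 2. TF cells were skeletal myogenic progenitors sorted directly from teratomas, tumours of mixed tissue that grew from E14-EGFP embryonic stem cells in the irradiated and cardiotoxin-injured tibialis anterior muscle of immunodeficient, dystrophin-deficient NSG-mdx4Cv mice. TE cells were grown from such progenitors in culture to passage 8. SF cells were endogenous satellite cells, the resident stem cells of muscle, taken fresh from adult muscle. SE cells were adult satellite cells grown to passage 8. The teratoma cells were sorted as CD31- CD45- α7-integrin+ VCAM-1+ cells. They came from a single embryonic stem cell line, and the strain of the satellite cell donors was not given in the sources used here. Cell origin, strain and the adult stage of the satellite cell donors therefore cannot be told apart. The labels do not say whether the 2 libraries of a group came from separate animals or cultures, so p-values measure the spread between these libraries only.

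Malat1 and Neat1 are nuclear RNAs transcribed from neighbouring genes. Malat1 RNA concentrates in nuclear speckles, where splicing factors are stored, and Neat1 RNA is the scaffold of paraspeckles, bodies that hold RNA-binding proteins such as Sfpq and Nono. Gas5 and Snhg1 are snoRNA hosts: their introns release small nucleolar RNAs that guide the modification of ribosomal RNA, while the spliced host RNA is translated briefly and degraded by nonsense-mediated decay. Gas5 was first described as an RNA that accumulates in growth-arrested cells. Miat is a nuclear RNA known from heart, retina and neurons that binds splicing factors. Dnm3os is transcribed from the strand opposite to the dynamin gene Dnm3 and is the precursor of the microRNAs miR-199a and miR-214.

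In the GRCm38 build (GENCODE M21), Malat1 lies at chr19:5795690-5802672 and Neat1 at chr19:5824708-5845478, both on the minus strand and 22035 bases apart. Snhg1 lies on the same chromosome at chr19:8723475-8726443 on the plus strand. Gas5 (chr1:161034422-161038539) and Dnm3os (chr1:162217623-162225550) are both on the plus strand of chromosome 1, and Dnm3os sits inside the body of Dnm3, which runs on the minus strand, with 0 exon bases in common. Miat lies at chr5:112213228-112229395 on the minus strand, and 24.3% of its exon bases are also covered by an antisense noncoding gene, Gm26953. For Malat1, 6.49% of the exon bases are covered by the antisense gene Gm37376. Neither antisense symbol has a row in the count table. The library kit keeps strand, but the strand setting of the counting is not given in the sources used here, so reads of these antisense genes may be included.

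The microRNAs carried by Dnm3os are shown because they are the known products of this RNA. The seed, bases 2 to 8, is in capitals, and the 4 mature sequences (RefSeq, GRCm38.p6) lie at chr1:162217844-162217866, chr1:162217883-162217904, chr1:162223397-162223418 and chr1:162223438-162223459, in the order given.
mmu-miR-199a-5p: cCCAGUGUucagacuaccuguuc
mmu-miR-199a-3p: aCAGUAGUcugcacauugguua
mmu-miR-214-5p: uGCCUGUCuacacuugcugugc
mmu-miR-214-3p: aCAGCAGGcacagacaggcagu
Each of the 4 has its own seed. The precursor rows Mir199a-2 and Mir214 had 0 counts in every library, so these libraries give the level of the host RNA and not of the microRNAs.

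For the snoRNA hosts, the sequence around the transcription start is shown because such hosts are known for a pyrimidine tract there, the 5' terminal oligopyrimidine (TOP) tract shared with many translation genes. Capitals mark runs of at least 6 bases that are all C or T, on the strand of the gene, that begin within 35 bases of the annotated start, in 100-base windows of RefSeq promoters (GRCm38.p6) at chr1:161035116-161035215 for Gas5 and chr19:8723437-8723536 for Snhg1.
Gas5: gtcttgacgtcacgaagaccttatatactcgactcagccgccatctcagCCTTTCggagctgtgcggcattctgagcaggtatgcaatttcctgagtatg
Snhg1: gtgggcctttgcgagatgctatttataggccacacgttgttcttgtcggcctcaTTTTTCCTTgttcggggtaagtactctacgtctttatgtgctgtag
Of 32851 promoters searched in the same way, 56.9% held such a run, so its presence does not set these genes apart. The other annotated start of Gas5 held none, and the run was chosen after these sequences had been seen. Snord47, a snoRNA in Gas5 (chr1:161038082-161038158, plus strand, GENCODE M21), is shown with its C box (TGATGA) and D box (CTGA) in capitals, since it is the only one of 10 listed Gas5 snoRNAs with a row in the count table.
Snord47: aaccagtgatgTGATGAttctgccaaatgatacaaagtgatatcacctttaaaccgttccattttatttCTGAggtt

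Library totals ranged from 11930961 to 21146632 estimated counts, and the ribosomal RNA precursor Rn45s took 7.99% to 21.3% of them. The myogenic genes Pax7, Itga7 and Vcam1 were detected in every library, and the summed level of 7 myogenic markers ran from 1060 to 1730 CPM (the count of a gene relative to the total of its library, scaled by the TMM method). This even sum held opposite moves by the test described below. In TE against TF, 4 of the 7 fell and 3 rose, where 26.1% of all genes passed. In SE against SF, 3 fell and 2 rose, where 40.7% passed. Mean Vcam1 was 293 CPM in TF and 39.7 CPM in TE, and mean Myod1 was 50.8 and 324 CPM. Fresh and expanded cells also stood far apart in other markers. The 14 muscle differentiation genes summed to 3070 and 1960 CPM in TF and 1120 and 1160 CPM in SF. Their sum was 12500 and 12100 CPM in TE and 15400 and 30300 CPM in SE. Of the 14, 11 rose in TE against TF and 13 in SE against SF, where 9.86% and 20.9% of all genes did. All 10 immediate early genes tested fell in both expanded groups, their sum being 12600 to 14600 CPM in the fresh libraries and 568 to 604 CPM in the expanded ones. The 6 fibro-adipogenic markers summed to 1020 to 1840 CPM in fresh libraries and at most 7.73 CPM in expanded ones, and the 5 endothelial markers to 67 to 344 CPM against at most 2.21 CPM. In the haematopoietic list, TF replicate 1 reached 209 CPM where the other fresh libraries had 27.3 to 44.9 CPM, and Ptprc (CD45) was at 0 in every expanded library. The summed level of 10 proliferation genes was lowest in SF, at 172 and 152 CPM against 727 to 1670 CPM in the other groups. Pcna did not share this, with its highest mean in SF (90.4 CPM, against 79 in TF, 55.1 in TE and 57 in SE). Mean Birc5 was at 24.8 CPM in SF, 23.4 in TE, 29.2 in TF and 36 in SE. The SE libraries differed most from each other, with a chi-square per degree of freedom of 93 against 12.1 to 53.4 in the other groups: Myog, a driver of differentiation, was at 263 and 899 CPM in SE replicates 1 and 2, and Mki67, a proliferation marker, at 692 and 278 CPM. The part of these marker, state and library differences in the results below was not tested, and in bulk RNA fewer cells of a type and less RNA per cell cannot be told apart.

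**Figure D1:**
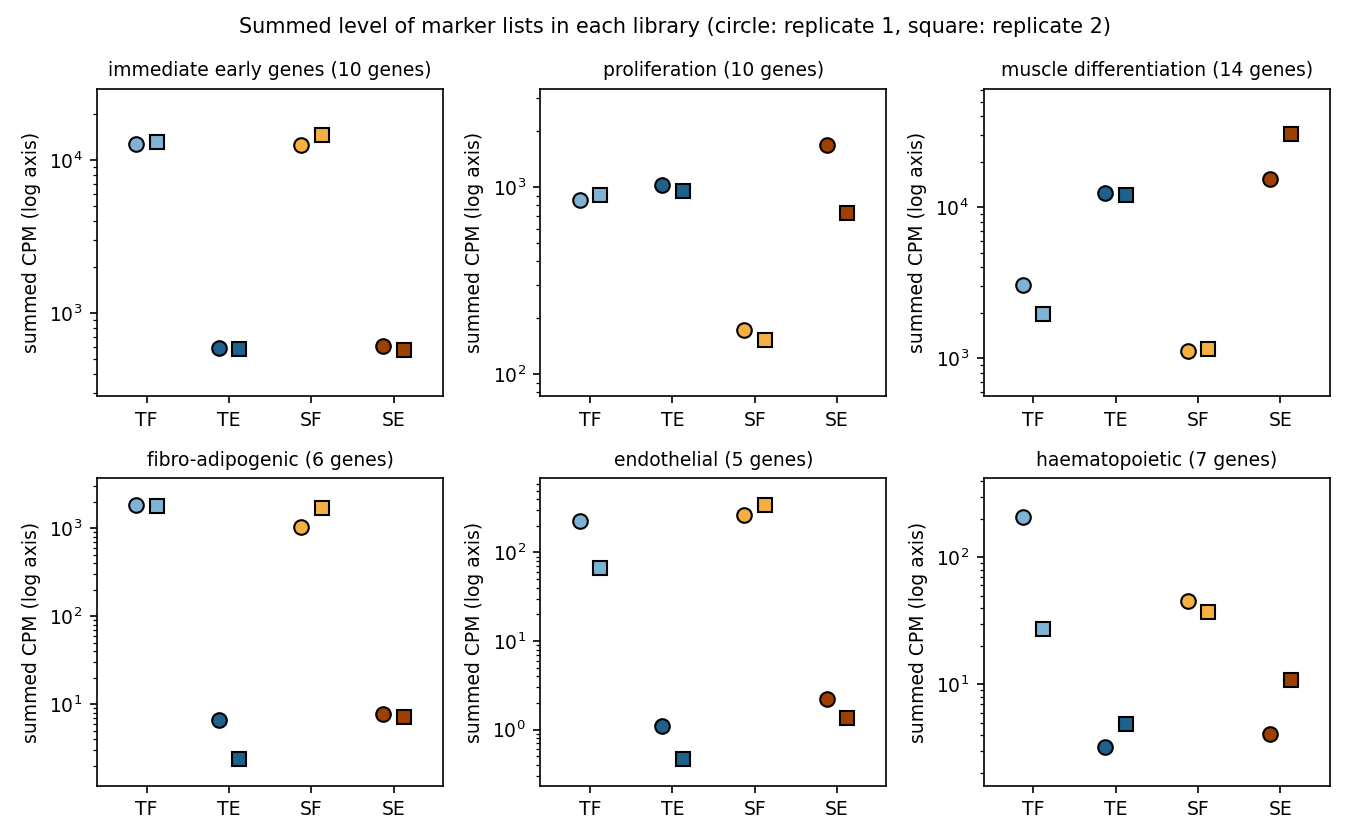
Summed CPM (vertical log axis) of 6 gene lists in each of the 8 libraries by group; circles are replicate 1 and squares replicate 2. The immediate early sum lies at 12600 to 14600 CPM in the fresh groups TF and SF and at 568 to 604 CPM in the expanded groups, while the proliferation sum is lowest in SF.

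Counted together, between 1 and 4 of the 6 RNAs passed the test in a comparison. The test was edgeR's quasi-likelihood F test, and a gene passed at an adjusted p (Benjamini-Hochberg, over all 17582 genes) below 0.05 and a level more than 25% higher in one group than in the other. The error beside a log2 fold change is its standard error. The comparisons share libraries and are given side by side. In TE against TF, 2 of 6 passed, both higher (Gas5 and Snhg1), where 26.1% of all genes passed (9.86% higher and 16.2% lower). In SE against SF, 2 of 6 passed, both lower (Malat1 and Miat), where 40.7% passed (20.9% higher and 19.8% lower). Between fresh cells, 3 of 6 were lower in TF than in SF (Malat1, Neat1 and Gas5), where 24.2% of genes passed (15.1% higher and 9.13% lower), with a median log2 fold change of -2.06 over the 6 and 0.08 over all genes. Between expanded cells, 1 of 6 (Neat1) was lower in TE than in SE, where 7.21% passed (3.15% higher and 4.07% lower). Across origin and culture, 2 of 6 were lower in TF than in SE (Neat1 and Gas5), where 23.6% passed (14.5% higher and 9.16% lower), and 4 of 6 were lower in TE than in SF (Malat1, Neat1, Gas5 and Miat), where 46.6% passed (23% higher and 23.6% lower). The culture effect differed between the origins for 1 of 6 (Snhg1), where 14.3% of all genes passed (4.7% higher and 9.62% lower). The 6 RNAs made up 2.01% and 2.08% of all counts in SF, 0.422% and 1.11% in SE, and 0.32% to 0.348% in the teratoma-derived libraries.

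Malat1 was the most abundant of the 6 RNAs and was much higher in fresh satellite cells than in any other group. Its level was 19000 and 22300 CPM in SF, 3920 and 9830 CPM in SE, 3070 and 3190 CPM in TF, and 3170 and 2880 CPM in TE. Both SF libraries lay above the other 6, and the TF and TE libraries interleaved. Per kilobase of the longest annotated transcript (6983 bases), Malat1 ranked 4th and 6th of 24533 symbols in the SF libraries and between 51st and 79th in TF, TE and SE replicate 1, with SE replicate 2 at 13th. In TF against SF, Malat1 had a log2 fold change of -2.72 (error 0.412, adjusted p = 0.00179). In TE against SF it was -2.77 (error 0.413, adjusted p = 0.000571).

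Culture went with a lower Malat1 level in satellite cells but with a difference near 0 in teratoma-derived cells. In SE the log2 fold change against SF was -1.59 (error 0.396, adjusted p = 0.0105), whereas in TE against TF it was -0.05 (error 0.387, adjusted p = 0.945). The difference between these 2 culture effects was 1.54 (error 0.55), and it did not pass the threshold (adjusted p = 0.0963, with a range over 15 alternatives from 0.00104 to 0.267). It was 2.34 and passed without SE replicate 2 (adjusted p = 0.00104). The SE replicates differed 2.51-fold, so the change in satellite cells was -1.05 without SE replicate 1 and -2.39 without SE replicate 2, both past the threshold. With only SF and SE in the fit it was not (adjusted p = 0.0875, in a range from 4.43e-07 to 0.0875). The levels thus ordered as TE, TF, SE and SF. TE and TF overlapped, and both SE libraries lay above them, while SF differed from each of the other groups. The differences from SE missed the threshold in the edgeR fit over 4 groups (log2 fold change -1.14 for TF against SE, adjusted p = 0.0632, and -1.18 for TE against SE, adjusted p = 0.115). Both passed with DESeq2 (adjusted p = 0.00412 for TF against SE and 0.00358 for TE against SE). They also passed in edgeR without the filter on low counts (adjusted p = 0.00353 and 0.00485, in the same order). Without SE replicate 1, TE against SE was at -1.69 and TF against SE at -1.67, and both passed the threshold (adjusted p = 0.00374 and 0.0014). Without SE replicate 2 they were -0.37 (adjusted p = 0.611) and -0.33 (adjusted p = 0.504). TF against SE also passed without SF replicate 1 (adjusted p = 0.0458) or SF replicate 2 (adjusted p = 0.0307).

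**Figure D2:**
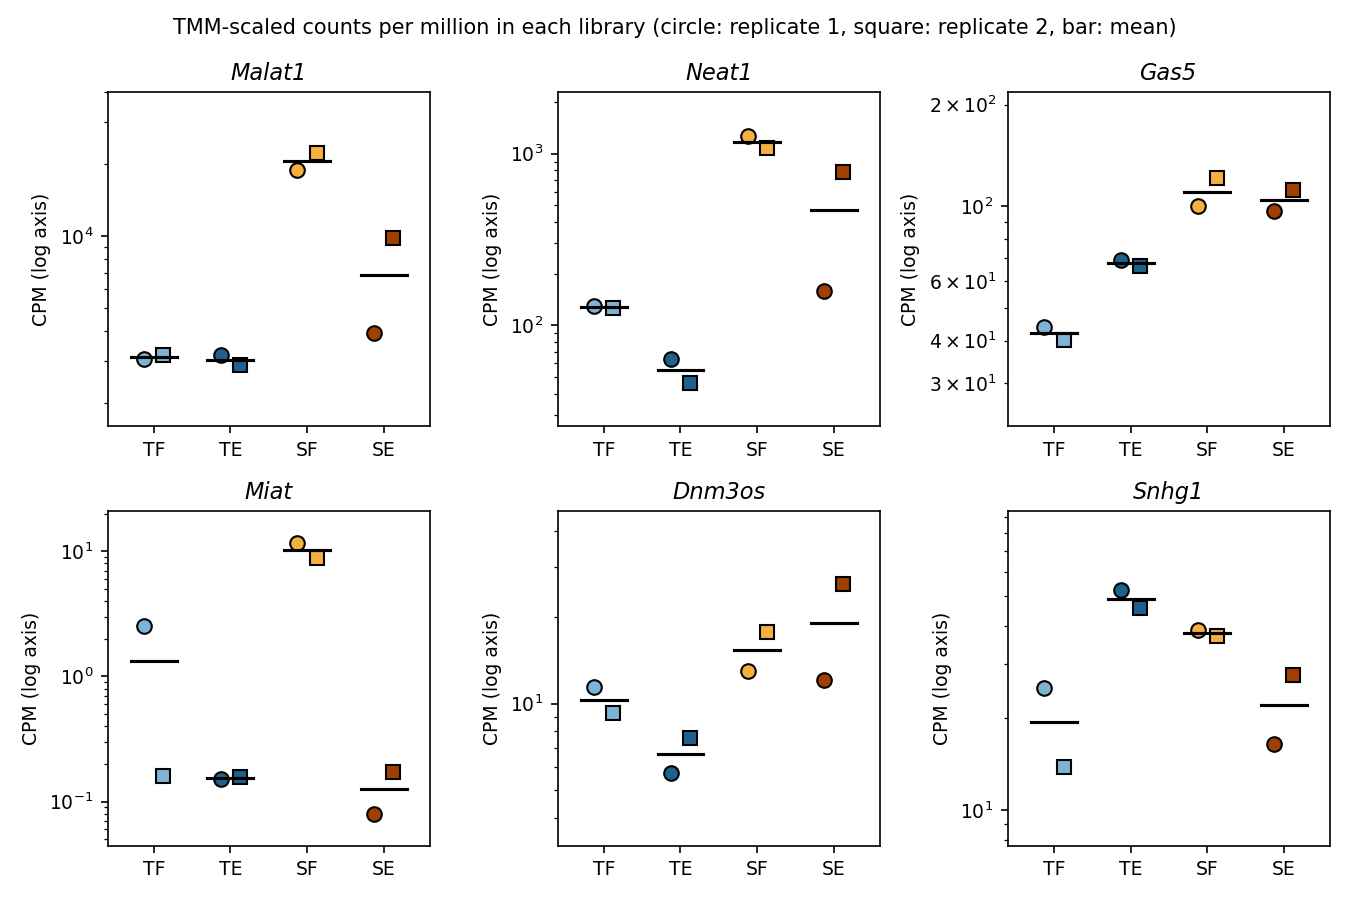
TMM-scaled CPM (vertical log axis) of the 6 RNAs in every library by group, with a bar at the group mean; circles are replicate 1 and squares replicate 2. Malat1, Neat1 and Miat are highest in both SF libraries, Gas5 is lowest in TF, and Snhg1 is highest in TE.

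Neat1 followed Malat1 in its order of SF, SE and then the teratoma-derived groups, with wider differences. Its level was 1270 and 1080 CPM in SF, 159 and 786 CPM in SE, 130 and 126 CPM in TF, and 63.6 and 46.4 CPM in TE. No 2 groups overlapped, although SE replicate 1 came close to the TF libraries and SE replicate 2 close to the SF ones. Against SF the log2 fold change was -3.20 in TF (error 0.591, adjusted p = 0.00463) and -4.42 in TE (error 0.625, adjusted p = 0.000418). Among expanded cells, TE lay below SE by a log2 fold change of -3.10 (error 0.589, adjusted p = 0.0127). That last difference was -1.53 without SE replicate 2, and it missed the threshold with only TE and SE in the fit (adjusted p = 0.0574).

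The culture effect on Neat1 had a like estimate in both origins and passed the threshold in neither. It was -1.22 in TE against TF (error 0.554, adjusted p = 0.134) and -1.32 in SE against SF (error 0.551, adjusted p = 0.0813). The difference between them was 0.10 on the log2 scale (error 0.771, adjusted p = 1), or 1.66 without SE replicate 2 (adjusted p = 0.00255) and -0.63 without SE replicate 1. For TE against TF, 4 of 16 alternatives passed the threshold, with adjusted p ranging from 1.03e-05 to 0.375. The estimate hardly moved in these 4, being -1.22 without the filter on low counts (adjusted p = 1.03e-05), -1.19 without SE replicate 1 (adjusted p = 0.00043), -1.22 without SE replicate 2 (adjusted p = 0.000355) and -1.24 with only TE and TF in the fit (adjusted p = 0.00114). In SE against SF the change was -0.56 without SE replicate 1 and -2.88 without SE replicate 2 (adjusted p = 2.47e-06, the range over all alternatives being 1.06e-06 to 0.213). TF was lower than SE (log2 fold change -1.88, error 0.562, adjusted p = 0.0371), but this rested on SE replicate 2, without which it was -0.31 (adjusted p = 0.432), and it was also lost without TF replicate 1 (adjusted p = 0.0845) or TF replicate 2 (adjusted p = 0.0923). In the order TE, TF, SE, SF, the neighbours TE and TF, and SE and SF, thus did not overlap but missed the threshold in the fit over 4 groups.

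The ratio of Neat1 to Malat1 within a library does not depend on library scaling. Neat1 counts were 4.24% and 3.97% of Malat1 counts in TF, 6.71% and 4.86% in SF, and 4.05% and 7.99% in SE. In TE they were 2.01% and 1.61%, below all 6 other libraries. Over the 8 libraries the log2 levels of the 2 RNAs had a Pearson correlation of 0.952, a description over libraries that share their groups. The annotation holds 4 Neat1 transcripts, all but 1 far shorter than the 20771-base form that paraspeckles need, and the deposited table sums all forms into 1 row, so short and long Neat1 RNA were not separated. Per kilobase of that longest transcript, the mean Neat1 level was 56.8 CPM in SF and 2.65 CPM in TE, against 2960 and 434 CPM for Malat1.

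Miat was largely an RNA of fresh satellite cells. It had 160 and 131 estimated counts in SF (11.6 and 8.79 CPM), 30 and 2 counts in TF (2.52 and 0.159 CPM), 3 counts in each TE library (0.151 and 0.156 CPM), and 1.7 and 3 counts in SE (0.0801 and 0.171 CPM). The SF libraries stood above all others, and TF replicate 1 was the only other library above the limit of 3 counts, which corresponded to 0.141 to 0.252 CPM. From summed counts, SF exceeded SE 78.7-fold (exact 95% interval 33.3 to 244) and TE 66.3-fold (30.1 to 182), intervals that cover counting error only. In the edgeR fit the change in SE against SF passed the threshold (adjusted p = 0.00626, at most 0.0292 in 16 alternatives), as did that in TE against SF (adjusted p = 0.00614, at most 0.0301). The fitted log2 values, -6.20 (error 1.4) and -5.99 (error 1.38), depend on the prior count at such low levels.

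In TF, Miat could not be placed with confidence, since its 2 libraries differed 15.8-fold. SF exceeded TF 7.76-fold by summed counts (5.38 to 11.6), but the fit gave an adjusted p of 0.0995 (range 0.021 to 0.278). Without TF replicate 1 the log2 fold change was -5.93 and passed the threshold (adjusted p = 0.021). TF replicate 1 is also the library with the higher haematopoietic sum (209 against 27.3 CPM), endothelial sum (228 against 67 CPM) and Schwann sum (22.4 against 14.2 CPM), while the neuronal sums of the TF libraries were 126 and 125 CPM. Within the neuronal list, only Dcx was lower in TF replicate 1 than in TF replicate 2 (32.4 against 60.3 CPM), and the other markers were higher in it, such as Tubb3 (7.82 against 1.04 CPM), Stmn2 (5.21 against 1.59 CPM) and Elavl4 (3.36 against 0.0797 CPM). The part of these other cell types in its Miat counts was not tested. In SF the Schwann list (5 genes) summed to 92.9 and 78.7 CPM, above all other groups. The neuronal list (8 genes) summed to 213 and 236 CPM there, of which Map2 alone made up 185 and 226 CPM. In TE against TF the fitted change was -3.06 (error 1.26, adjusted p = 0.103), which passed without TF replicate 2 (-3.94, adjusted p = 0.0243, in a range from 0.0243 to 1). TF against SE (adjusted p = 0.095) likewise passed without TF replicate 2 (adjusted p = 0.0219), and the difference between the culture effects (adjusted p = 0.285) passed without TF replicate 1 (adjusted p = 0.0493). DESeq2 over all 8 libraries called Miat in TE against TF (adjusted p = 0.0468), TF against SF (adjusted p = 0.0316) and TF against SE (adjusted p = 0.0394). TE and SE, both at 3 counts or fewer in each library, give no fold.

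Gas5 was lowest in fresh teratoma-derived cells and highest in satellite cells, fresh or expanded. It was at 44 and 40.1 CPM in TF, 69.1 and 66.3 CPM in TE, 96.5 and 112 CPM in SE, and 100 and 121 CPM in SF. The TF, TE and satellite cell libraries formed 3 levels that did not overlap, whereas SE and SF overlapped. TF was lower than SF by a log2 fold change of -1.40 (error 0.191, adjusted p = 0.00108) and lower than SE by -1.31 (error 0.191, adjusted p = 0.000997). Both passed the threshold under all 16 alternatives. TE was lower than SF by -0.71 (error 0.187, adjusted p = 0.0121), which was lost without TE replicate 1 (adjusted p = 0.105), TE replicate 2 (0.136) or SF replicate 2 (0.0723).

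Gas5 rose with culture in teratoma-derived cells, with a log2 fold change of 0.69 in TE against TF (error 0.189, adjusted p = 0.0244). This call was lost on leaving out any library of TF or TE (estimates from 0.66 to 0.78, adjusted p from 0.0971 to 0.159) and in a test against that minimum change itself (adjusted p = 0.0647). In SE against SF the change was -0.09 (error 0.186, adjusted p = 0.721). The difference between the 2 culture effects, 0.78 (error 0.265), missed the threshold (adjusted p = 0.083, range 0.0115 to 0.306). Among expanded cells TE against SE was at -0.62 (error 0.187, adjusted p = 0.0835, range 0.016 to 0.514). The levels ordered as TF, TE, SE and SF. TF differed from TE, while TE and SE did not overlap but missed the threshold (DESeq2 gave an adjusted p = 0.016), and SE and SF overlapped.

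Snhg1 had another order, with its highest level in expanded teratoma-derived cells. It was at 25 and 13.8 CPM in TF, 52.4 and 45.6 CPM in TE, 38.6 and 36.9 CPM in SF, and 16.5 and 27.7 CPM in SE. Both TE libraries lay above all others, and the TF and SE libraries overlapped. Snhg1 rose with culture in teratoma-derived cells, by a log2 fold change of 1.34 in TE against TF (error 0.343, adjusted p = 0.0179), a call lost without TF replicate 2 (1.01, adjusted p = 0.0999) or TE replicate 1 (1.27, adjusted p = 0.0747). In satellite cells it was -0.78 in SE against SF (error 0.338, adjusted p = 0.0927, with 4 of 16 alternatives past the threshold, among them that without SE replicate 2, at -1.18). Without SE replicate 1 it was -0.43 (adjusted p = 0.408).

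The culture effect on Snhg1 differed between the 2 origins, and it was the one RNA of the 6 for which this difference passed the threshold. The difference was 2.11 on the log2 scale (error 0.481, adjusted p = 0.0182), where 14.3% of all genes tested passed. It ran from 1.76 to 2.60 over the 15 alternatives and lost its call only without TE replicate 1 (2.02, adjusted p = 0.0501). The order was TF, SE, SF and TE. TF and SE overlapped, and the other neighbours did not overlap but missed the threshold. The log2 fold change was -0.19 for TF against SE (adjusted p = 0.73), -0.78 for SE against SF and 0.38 for TE against SF (error 0.335, adjusted p = 0.366). TE against SE, at 1.15 (error 0.339, adjusted p = 0.0776), passed without SE replicate 2 (1.57, adjusted p = 0.0176), without TF replicate 1 (adjusted p = 0.0396) or TF replicate 2 (adjusted p = 0.0408), and was 0.83 without SE replicate 1 (adjusted p = 0.245). TF against SF, at -0.96 (error 0.341, adjusted p = 0.0682), passed in 7 of 16 alternatives, among them those without TF replicate 1 (-1.45, adjusted p = 0.0321), SE replicate 1 (adjusted p = 0.0215) and SE replicate 2 (adjusted p = 0.028), and was -0.60 without TF replicate 2 (adjusted p = 0.355).

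**Figure D3:**
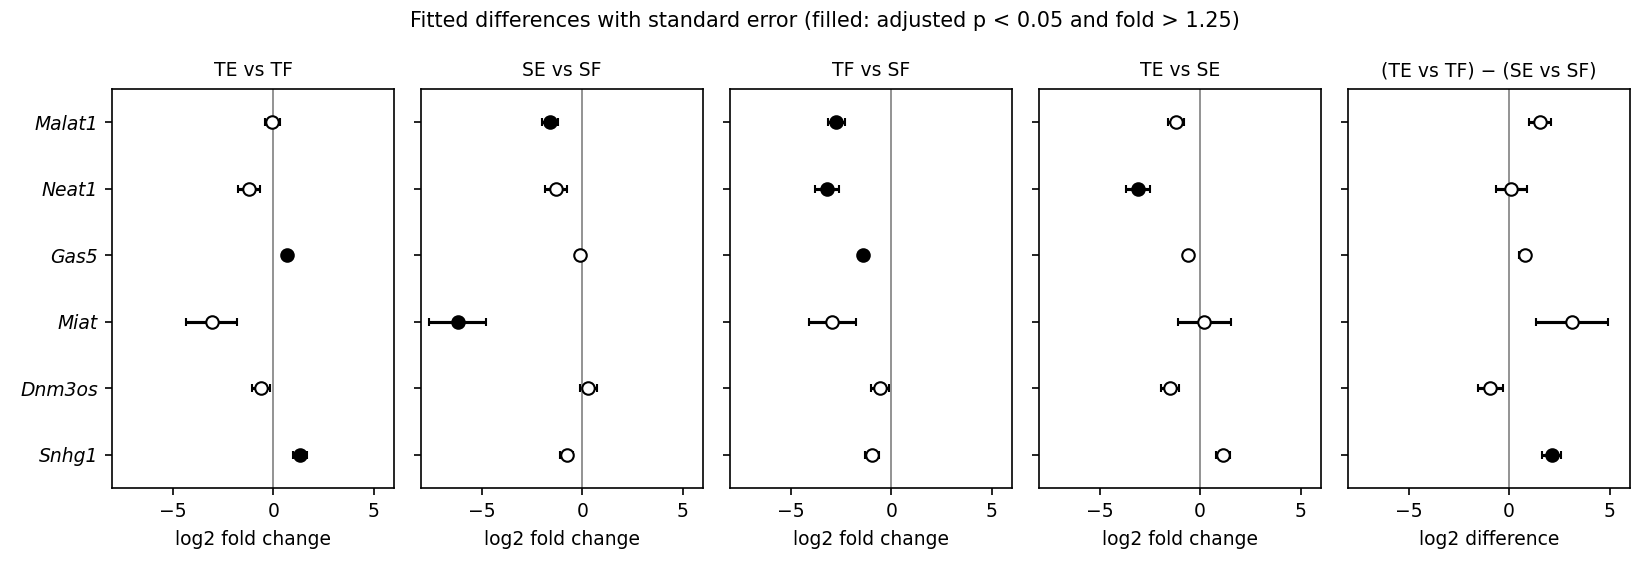
Fitted log2 differences (horizontal axis, bars are the standard error) of the 6 RNAs in 4 comparisons and in the difference between the culture effects of the 2 origins, with filled points where the adjusted p was below 0.05 and the change above the minimum. Malat1, Neat1 and Gas5 are lower in TF than in SF, and Snhg1 alone is filled in the last panel, at 2.11.

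The snoRNAs released from the 2 hosts were hardly covered by these libraries, which leaves host and snoRNA levels difficult to set side by side. Snord47, printed above, was at 1.51 and 1.91 CPM in TF, 4.08 and 4.3 CPM in TE, 3.85 and 4.57 CPM in SF, and 6.64 and 6.68 CPM in SE. Like its host Gas5, it was lowest in both TF libraries. Snord22, in Snhg1, was at 2.52 and 11.9 CPM in TF, 15.9 and 13.2 CPM in TE, 29 and 21.5 CPM in SF, and 11.5 and 20.8 CPM in SE. Neither snoRNA passed the threshold in any comparison. Both lie within exons of some annotated host transcripts, so reads of the snoRNA and of unspliced host RNA cannot be told apart.

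Other snoRNA host RNAs moved in both directions. Of 17 tested, 4 rose and 1 fell in TE against TF (26.1% of all genes passed), with a median log2 fold change of 0.79 where the median of all genes was -0.18. Snhg20 rose by 2.98 (error 0.874), Snhg17 by 1.44 (error 0.415) and Snhg15 by 1.26 (error 0.412), while Snhg18 fell by 2.92 (error 0.578). Satellite cells had 1 rise and 3 falls in SE against SF, where 40.7% of all genes passed: Zfas1 rose by 1.67 (error 0.366), while Snhg14 (-4.04, error 1.13), Snhg11 (-2.80, error 0.474) and Snhg17 (-1.82, error 0.407) fell. The 2 SF libraries differed widely in Snhg14, at 44.7 and 3.53 CPM.

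Snhg17 and Snhg12 shared the Snhg1 pattern of a higher culture effect in teratoma-derived cells. The difference was 3.27 for Snhg17 (error 0.58, adjusted p = 0.00589) and 2.06 for Snhg12 (error 0.546, adjusted p = 0.0339). Snhg18 went the other way, at -3.68 (error 0.785, adjusted p = 0.0136), and the other 14 did not pass, against 14.3% of all genes. Between fresh cells 7 of the 17 passed (24.2% of all genes), all lower in TF than in SF, led by Snhg17 (-3.14, error 0.434), Snhg20 (-2.94, error 0.875), Dancr (-2.35, error 0.72) and Snhg15 (-2.20, error 0.42), with a list median of -1.19 against 0.08 for all genes. In TE against SE, where 7.21% of all genes passed, Snhg5 was higher (1.19, error 0.28) and Snhg18 lower (-2.30, error 0.566).

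**Figure D4:**
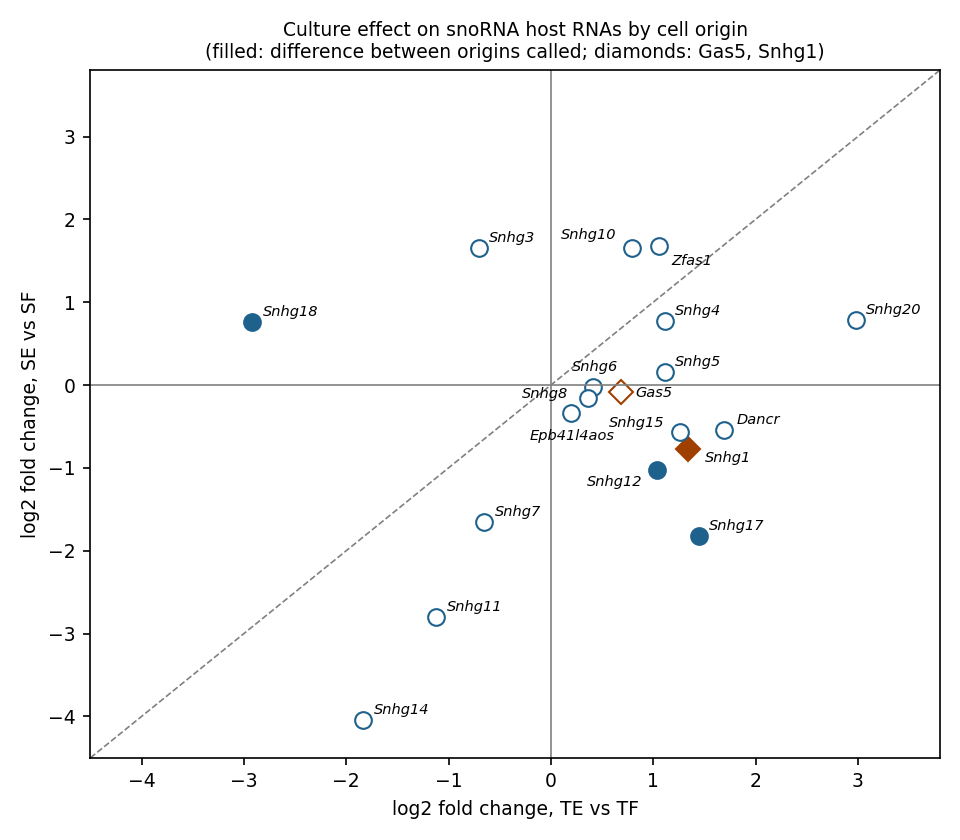
Log2 fold change with culture in teratoma-derived cells (TE vs TF, horizontal axis) and in satellite cells (SE vs SF, vertical axis) for 17 snoRNA host RNAs (circles) and for Gas5 and Snhg1 (diamonds), with the dashed line at equal effects. Points are filled where the difference between the origins passed the threshold: Snhg1, Snhg12 and Snhg17 lie below the line and Snhg18 above it.

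Gas5 and Snhg1 RNA is turned over by nonsense-mediated decay during translation, so the factors of that pathway and TOP genes were counted beside them. Of 14 decay factors, 3 passed in TE against TF, where 26.1% of all genes did, and all were higher: Smg8 (1.19, error 0.264), Smg5 (1.06, error 0.219) and Rbm8a (0.61, error 0.178). Between SE and SF, where 40.7% of all genes passed, 2 rose (Smg8 and Eif4a3, by 0.77 and 0.76) and 3 fell, among them Smg1, the kinase of the pathway (-1.15, error 0.219). Smg5 was also higher in TE than in SE (1.03, error 0.218, adjusted p = 0.0203). Of 14 translation genes with a TOP tract, 3 rose in TE against TF (Npm1 0.98, Naca 0.74 and Btf3 0.72), where 9.86% of all genes did, and 8 in SE against SF, where 20.9% did, led by Npm1 (1.44), Eef1b2 (1.41), Eef1g (1.37) and Eif4b (1.30). Gas5, with its own pyrimidine run, was at -0.09 in SE against SF where 8 of 14 TOP genes rose.

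The other growth arrest specific genes, which share only their discovery with Gas5, fell with culture in part. Of the 4 tested, 3 passed in TE against TF, all lower, where 26.1% of all genes passed (16.2% lower). In SE against SF, 2 were lower and 1 higher, where 40.7% of all genes passed (19.8% lower and 20.9% higher). With culture of teratoma-derived cells, Pmp22 (-2.15, error 0.295), Gas1 (-1.76, error 0.177) and Gas6 (-1.75, error 0.309) fell, while Gas2 was at 0.11 (adjusted p = 0.896). With culture of satellite cells, Pmp22 (-2.58, error 0.301) and Gas6 (-0.84, error 0.302) fell, Gas2 rose by 2.53 (error 0.531), and Gas1 was at -0.41 (adjusted p = 0.0821). Among expanded cells, where 7.21% of all genes passed, only Gas1 passed of the 4, at -1.10 for TE against SE (error 0.174, adjusted p = 0.00534).

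Dnm3os passed the test in none of the comparisons in the edgeR fit over 4 groups. It was called lower in TE than in SE with DESeq2 (adjusted p = 0.0292) and with edgeR without the filter on low counts (adjusted p = 0.0201), and lower in TE than in SF with the same 2 alternatives (adjusted p = 0.0157 and 0.0362). Its unadjusted p was below 0.05 in these 2 comparisons. It was at 11.4 and 9.25 CPM in TF, 5.75 and 7.62 CPM in TE, 13 and 17.8 CPM in SF, and 12.1 and 26.1 CPM in SE. The 2 TE libraries were the lowest of the 8, and SF and SE overlapped. In the order TE, TF, SF, SE, the largest estimate was that of TE against SE, -1.51 (error 0.451, adjusted p = 0.0812), which passed the threshold without SE replicate 1 (-1.95, adjusted p = 0.0211) and was -0.86 without SE replicate 2 (adjusted p = 0.453). TE against SF, at -1.20 (error 0.449, adjusted p = 0.0515), passed in 7 of 16 alternatives, among them those without SE replicate 1 (adjusted p = 0.0311) or SE replicate 2 (adjusted p = 0.0413). The culture effects were -0.63 in teratoma-derived cells (error 0.448, adjusted p = 0.324) and 0.31 in satellite cells (error 0.44, adjusted p = 0.59), the latter turning to -0.33 without SE replicate 2. Their difference was -0.94 (error 0.628, adjusted p = 0.371).

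The genes tied to Dnm3os changed far more with culture than Dnm3os itself. All 3 tested (Dnm3, Twist1 and Twist2) fell in TE against TF and in SE against SF, where 16.2% and 19.8% of all genes did. Dnm3, whose gene body holds Dnm3os on the other strand, was at 51.5 and 56.8 CPM in SF, 6.13 and 5.34 CPM in TF, 0.612 and 1.89 CPM in SE, and 0.504 and 0.259 CPM in TE. It fell with culture, with a log2 fold change of -5.45 in satellite cells (error 0.564, adjusted p = 7.61e-05) and -3.88 in teratoma-derived cells (error 0.581, adjusted p = 0.00109). Twist1, a transcription factor known to activate Dnm3os, was at 43.9 and 41.4 CPM in TF, 7.48 and 6.05 CPM in SF, 1.46 and 4.04 CPM in TE, and 0 and 0.4 CPM in SE. Twist1 fell with a log2 fold change of -3.95 in TE against TF (error 0.756) and -5.12 in SE against SF (error 0.915), and it was higher in TE than in SE (3.83, error 0.91, adjusted p = 0.0349), where Dnm3os was at -1.51. Its relative Twist2, listed at 0 in both TE libraries and at most 0.188 CPM in SE, fell in both comparisons (adjusted p = 0.00376 and 0.00698).

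Neighbouring genes of the 6 RNAs were examined beside them. Snhg1 and Slc3a2, the heavy chain of an amino acid transporter, start back to back on opposite strands with 105 bases between the genes. Slc3a2 was at 150 and 143 CPM in TF, 484 and 467 CPM in TE, 199 and 258 CPM in SF, and 108 and 182 CPM in SE. Its difference between culture effects was 2.36 (error 0.361, adjusted p = 0.003), beside 2.11 for Snhg1, and it was also higher in TE than in SE (1.71, error 0.258, adjusted p = 0.00423). Wdr74, a ribosome assembly factor on the other side of Snhg1, rose in TE against TF by 1.28 (error 0.269). Near Malat1 and Neat1, Ltbp3 fell in TE against TF by 2.31 (error 0.209) and Frmd8 rose in SE against SF by 2.21 (error 0.41), where Malat1 was at -1.59. Of the 8 neighbours tested, 4 passed in TE against TF and 2 in SE against SF, against 26.1% and 40.7% of all genes.

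For the proteins of nuclear speckles, where Malat1 RNA resides, the mRNAs that passed between fresh cells were higher in SF. Of 15 speckle and SR splicing proteins, 8 passed in TF against SF (24.2% of all genes), all lower in TF, led by Srrm2, a core speckle protein (-1.60, error 0.212), Srsf5 (-1.60, error 0.21), Srsf7 (-1.45, error 0.221) and Sf3b1 (-0.82, error 0.189). Between SE and SF, 6 passed (40.7% of all genes), all lower in SE, led by Srsf7 (-1.28), Srsf5 (-1.23), Sf3b1 (-1.13) and Srrm2 (-1.05). Their list medians were -0.68 and -0.40, against 0.08 and -0.23 for all genes. Between TE and TF, 1 of the 15 passed (Srsf1, which rose by 0.96, error 0.251), where 26.1% of all genes did. The culture effect was higher in teratoma-derived cells for 5 of the 15, including Srsf5 (1.74, error 0.293) and Srrm2 (1.67, error 0.294). For that difference 14.3% of all genes passed, 4.7% of them in the higher direction counted over all genes. In TE against SE the list median was 0.15.

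The proteins of paraspeckles, which Neat1 RNA holds together, moved in both directions. Between SE and SF, 4 of 15 rose and 2 fell, where 40.7% of all genes passed, and the paired core proteins parted: Nono rose by 1.64 (error 0.195), while Sfpq fell by 1.05 (error 0.211). Smarca4 rose by 1.35 and Nudt21 by 1.16 in the same comparison. Between fresh cells, where 24.2% of all genes passed, 1 of 15 was higher in TF than in SF, namely Nono (1.19, error 0.193). There, 2 were lower, Sfpq (-1.06, error 0.211) and Hnrnph3 (-0.92, error 0.251). Between TE and TF, 2 of 15 passed, where 26.1% of all genes did: Taf15 rose by 1.39 (error 0.23) and Tardbp by 0.62 (error 0.18). In TE against SE, where Neat1 was at -3.10, the median of the 15 was 0.03.

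Of a list of splicing factors linked to Miat, 5 were tested. In TE against TF, 3 rose and 1 fell, where 26.1% of all genes passed. In SE against SF, 2 rose and 1 fell, where 40.7% passed. Celf1 rose by 1.34 (error 0.212) and Celf2 by 0.92 (error 0.187) in TE against TF, and by 0.76 (error 0.209) and 0.83 (error 0.186) in SE against SF, where Miat fell. Sf1, the branch point factor that binds a repeat in Miat RNA, fell in SE against SF by 1.20 (error 0.202) and was at 0.03 in TE against TF (adjusted p = 0.943). Srsf1 rose in TE against TF as given above and was at 0.41 in SE against SF (adjusted p = 0.206). Celf3, a neuronal factor, fell in TE against TF (adjusted p = 0.0322). It was at 4.79 and 0.239 CPM in TF, 4.28 and 1.08 CPM in SF, and 0.989 and 1.71 CPM in SE. In both TE libraries it was listed at 0. Celf3 thus had its high TF value in the same library as Miat.

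Among 23 other long noncoding RNAs tested, more were lower than higher in TF against SF. There, 9 were lower and 2 higher (9.13% and 15.1% of all genes), with a list median of -0.95. Lncpint was at 55 and 62.7 CPM in SF and 4.29 and 1.12 CPM in TF (log2 fold change -4.45, error 0.661), and Mir17hg (-3.96, error 0.597), Pvt1 (-2.70, error 0.482) and Kcnq1ot1 (-2.69, error 0.647) were also lower. Between SE and SF, 4 fell and 4 rose (19.8% and 20.9% of all genes): Lncpint (-4.55, error 0.658), Kcnq1ot1 (-3.74, error 0.677) and Jpx (-3.69, error 0.584) were among those that fell, while Rmrp, the RNA of a ribosomal RNA processing enzyme, rose by 2.60 (error 0.273). Kcnq1ot1 was uneven in SF, at 8810 and 1550 CPM. With culture of teratoma-derived cells only Mir17hg of the 23 passed, rising by 2.01 (error 0.564), where 26.1% of all genes passed. Between TE and SE, 2 of the 23 passed, where 7.21% of all genes did. They were Rpph1 (-2.82, error 0.228) and Pvt1 (-2.73, error 0.477), both lower in TE.

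The genes whose levels were most like each RNA over the 8 libraries were ranked by the Pearson correlation of log2(CPM + 1) among the 12677 genes whose normalized count averaged 50 or more. These are descriptions over 8 libraries in 4 groups, so any gene with the same group order scores highly. Malat1 was most like Dgat1 (0.987), Mgarp (0.984) and Airn (0.981). Neat1 was most like Use1 (0.973), Mgarp (0.972) and Mknk2 (0.97), so Mgarp, with a mean of 15.5 CPM in SF and 0.253 CPM in TE, was close to both. Gas5 was most like Gtpbp6 (0.996), Gclc (0.991) and Musk (0.988), the last being the receptor kinase of the neuromuscular junction, with a mean of 37.7 CPM in TF and 136 CPM in SF.

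For Miat the nearest genes were Sgip1 (0.991), H2-Q5 (0.989) and Stxbp5l (0.987). Sgip1 and H2-Q5 were listed at 0 in TE and SE, and H2-Q5 belongs to a family of near-identical genes whose reads may have been split. For Dnm3os they were Slc6a8 (0.95), Tubb2a (0.936) and Spsb3 (0.931), the lowest likeness of the 6 RNAs. For Snhg1 they were Clic5 (0.98), Itsn2 (0.976) and Zfp809 (0.963), each with its highest mean in TE and its lowest in TF. Among the 6 RNAs themselves, Snhg1 correlated least with the others, from -0.224 with Dnm3os to 0.337 with Gas5.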

How the data were processed

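The authors deposited 1 table of estimated counts (expected counts, not normalized) for 24980 gene symbols in 8 libraries made with a stranded total RNA kit. The submitters' processing notes name CASAVA, kallisto 0.44.0 and GRCm38/mm10. How transcripts were summed to genes and the strand setting are not given in the sources used here. Columns were matched to samples by title.

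Estimated counts were rounded, filtered (filterByExpr), scaled by TMM and tested with edgeR 4.0.16 (R 4.3.3) by the quasi-likelihood F test in 1 fit over 4 groups, with Benjamini-Hochberg adjustment over 17582 genes. A gene passed at an adjusted p below 0.05 and a level more than 25% higher in one group. The test was first run on simulated counts, where it missed most of the smallest changes and part of the larger ones, the largest included. Its calls there held more false ones than the threshold allows. Levels are TMM-scaled CPM. Limits of detection were 3 counts per library, covering counting error only.

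The 6 RNAs and all gene lists were chosen with earlier results of these data known. Text names the 6 RNAs, their 3 most correlated genes, and up to 4 genes per list with the largest change among those past the threshold (every gene of short lists); levels of markers and of neighbours beyond this were chosen after their values were seen. Same-numbered libraries were not treated as pairs. Alternatives included DESeq2 1.42.0 and each library left out. Sequences came from RefSeq and GENCODE M21.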

Additional observations from a re-analysis of the deposited data

Results flagged for a closer look

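The difference between the culture effects of the 2 origins on Snhg1, a log2 difference of 2.11 with a standard error of 0.481 (edgeR, adjusted p = 0.0182), marked this RNA for a closer look, because the effect in TE against TF was higher than that in SE against SF by a test of the difference itself. It was higher in both TE libraries (52.4 and 45.6 CPM) than in both TF libraries (25 and 13.8 CPM), and lower in both SE libraries (16.5 and 27.7 CPM) than in both SF libraries (38.6 and 36.9 CPM). With 2 libraries per group, no sample could be tested as standing apart within its group.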

How the results depend on the processing

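With 2 libraries per group the calls on single RNAs depended on which libraries entered, and rounding, gene summing and strand setting could not be varied. Malat1, Neat1 and Gas5 in TF against SF, Malat1, Neat1 and Miat in TE against SF, Miat in SE against SF and Gas5 in TF against SE kept direction and side of the threshold under all 16 alternatives. Where a result changed and no cause is named, the cause was not tested. A difference that missed the threshold is not shown to be absent.

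The number of the 6 RNAs past the threshold was 1 in TE against TF when tested against the minimum change itself. It was 4 without the filter on low counts and 1 with only the 2 groups compared in SE against SF, and 5 with DESeq2 in TF against SF. In TE against SE it was 4 without the filter, 5 with DESeq2 and 0 with only the 2 groups compared, and in TF against SE 4 with DESeq2 and 1 with only the 2 groups. For the difference between culture effects it was 2 with median-ratio size factors, 2 without the filter and 3 with DESeq2. Among all genes, 1268 passed in TE against SE, against 2260 without the filter and 2147 with DESeq2.

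With 1 library left out, an arm of 1 library is assumed to vary like the other groups. The number of the 6 RNAs past the threshold then ranged from 0 to 3 in TE against TF, 2 to 4 in SE against SF, 3 to 5 in TF against SF, 1 to 3 in TE against SE, 1 to 3 in TF against SE, 3 to 5 in TE against SF and 0 to 3 for the difference between culture effects. All genes past it ranged from 2739 to 5439 in TE against TF, 2639 to 5072 in TF against SF, 653 to 1698 in TE against SE and 1467 to 2996 for the difference between culture effects.

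Direction changed in these cases, none of them past the threshold in the direction that reversed. With 1 library left out, Malat1 in TE against TF ranged from -0.0873 to 0.0436 (0.0127 without TF replicate 2 and 0.0436 without TE replicate 2). For SE against SF, Gas5 ranged from -0.219 to 0.0755 (0.0755 without SF replicate 2, 0.0342 without SE replicate 1) and Dnm3os from -0.33 without SE replicate 2 to 0.78. The fitted value of Miat in TE against SE ran from -0.14 without SE replicate 1 to 0.66, but both groups were at 3 counts or fewer, so it is no fold and no direction is read from it. Snhg1 in TF against SE ranged from -0.69 to 0.23 (0.15 without TF replicate 2, 0.23 without SE replicate 2). The difference between culture effects on Neat1 ranged from -0.63 without SE replicate 1 to 1.66, with -0.14 without TE replicate 1.

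Median-ratio size factors moved the median log2 fold change of all genes by -0.19 in SE against SF, -0.16 in TF against SF, -0.21 in TE against SF and 0.14 in the difference between culture effects, and turned none of the 6 RNAs. Genes higher and lower were 2655 and 1606 in TF against SF with TMM, 2110 and 1943 with median-ratio factors and 2495 and 2626 with DESeq2. With TMM and DESeq2 they were 3677 and 3475 against 3334 and 4840 in SE against SF, 4042 and 4157 against 3535 and 5550 in TE against SF, and 826 and 1691 against 1538 and 1966 for the difference between culture effects.

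Libraries with the same replicate number did not deviate together (correlations from -0.0228 to 0.026), so the numbers were not read as pairs. With the replicate number as a block, 2 of the 6 RNAs passed in TE against TF, 2 in SE against SF, 3 in TF against SF and 1 in TE against SE, and the block changed no call on the 6.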
